A study of Mus musculus and Homo sapiens with 67 samples.

Results

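SW1990 cells, an established human pancreatic ductal adenocarcinoma line, were grown with 2 inhibitors alone and together, and the values below describe how far the combination departed from the sum of the 2 single responses. All 12 SW1990 libraries of the 67 samples in the series were used, 3 in each of 4 arms: the combination of tazemetostat and RMC-6236, RMC-6236 alone, tazemetostat alone, and DMSO as control. No arm carries an engineered allele or a further agent according to the labels, which give neither dose nor treatment time. The quantity of interest is the interaction, which is the combination − RMC-6236 difference minus the tazemetostat − control difference, both on the log2(FPKM + 1) scale, where FPKM is a fragment count scaled to transcript length and library size. A positive interaction places a gene above the additive expectation in the combination, and a negative one places it below. Additive on this scale means that ratios of FPKM + 1 multiply. At low FPKM these differ from fold changes of FPKM, so the scale itself decides part of what counts as a departure.

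Tazemetostat blocks EZH2, the enzyme by which polycomb repressive complex 2 (PRC2) methylates lysine 27 of histone H3 and keeps many developmental genes silent. RMC-6236 blocks RAS proteins in their GTP-bound, signalling state. Signalling from RAS through the MAPK cascade maintains cyclin D1, the E2F programme of DNA replication and a set of feedback inhibitors.

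The libraries held between 11489 and 12306 genes at 1 FPKM or more. FPKM tables keep no read totals, so read depth is unknown and the 3 libraries of an arm are the sole measure of precision. The labels do not say whether these were separate cultures, so the p-values cover the spread among these libraries, possibly technical spread alone. All 8 ductal epithelial markers reached 1 FPKM in every library. No marker of leukocytes (of 5), endothelium (of 4) or islet cells (of 3) reached 1 FPKM in any library, whereas 2 of 7 fibroblast markers (LUM and COL1A1) and 1 of 4 acinar markers (PRSS1) did. RMC-6236 replicate 1 stood apart, with a median-ratio scale factor of 0.88 against 0.99 for both other RMC-6236 libraries and 11535 genes at 1 FPKM against 11899 and 11911. Mitochondrial transcripts made up 31.6 to 32.2% of summed FPKM with the combination, 31.6 to 32.5% with RMC-6236, 26.2 to 27.5% with tazemetostat and 26.6 to 28.0% in controls. The part of these differences in the results was not tested, except that counts of called genes without RMC-6236 replicate 1 are given where they moved by 1.5 times or more.

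The interaction was called at a Benjamini-Hochberg adjusted p under 0.05 (limma, two-sided) for 1965 of 12913 tested genes, or 15.2%. Of these, 1166 genes (9.03% of those tested) lay above additive and 799 (6.19%) below. The median interaction over all tested genes was 0.01, and 3583 genes had an unadjusted p under 0.05. At 2-fold or more, 44 genes lay above and 11 below additive. Of the genes above additive, 136 passed the filter (1 FPKM in at least 3 libraries) through the 3 combination libraries alone, so the filter kept them because they were high there. Without any 1 combination library those 136 genes dropped out untested. Another 274 to 305 of the 1166 were tested but lost their call, and 737 to 768 genes lay above additive. On the deposited scale the split between directions depended on 1 library: without RMC-6236 replicate 1, 1198 genes lay above and 1626 below additive, and 42.4% of the called genes were above against 59.3% with all libraries. With libraries rescaled by their median ratio, 1254 genes lay above and 1115 below (52.9% above), and leaving out RMC-6236 replicate 1 then gave 1404 and 1285 (52.2% above).

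Most genes with a called interaction also had a called combination − RMC-6236 difference. Tazemetostat on top of RMC-6236 raised 29.8% of all tested genes and lowered 18.3%, and tazemetostat alone raised 23.1% and lowered 14.4%. Among the 1166 genes above additive, tazemetostat raised 486 on top of RMC-6236 without a called change on its own, and raised 401 in both settings but further when RMC-6236 was present. Another 158 were lowered by tazemetostat alone and showed no called change on top of RMC-6236, and 70 were raised by tazemetostat on top of RMC-6236 but lowered by it alone. Among the 799 genes below additive, tazemetostat lowered 292 only on top of RMC-6236 and 180 in both settings, while 156 rose with tazemetostat alone and had no called change on top of RMC-6236. Tazemetostat raised a further 87 in both settings but less on top of RMC-6236, and it raised 77 alone and lowered them on top of RMC-6236.

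The single response to RMC-6236 mostly pointed the same way as the departure. RMC-6236 against control raised 706 of the 1166 genes above additive and lowered 291, against 30.7% of all tested genes raised and 41.7% lowered. It lowered 477 of the 799 genes below additive and raised 226. RMC-6236 libraries enter both the RMC-6236 − control difference and the interaction, so these counts are a description. All 3 combination libraries exceeded all 9 others for 842 of the 1166 genes above additive, where 22.9% of all tested genes showed this order, and lay under all 9 others for 459 of the 799 genes below additive, against 15% of all tested genes. The same libraries enter the interaction, so these counts are a description as well. For the 136 genes above additive that only the combination carried past the filter, the filter fixed this order. On untransformed FPKM, 1163 of the 1166 genes above additive and 736 of the 799 below kept the sign of their departure. The remaining 63 genes below additive changed sign there and include AMIGO2 and AREG.

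**Figure D1:**
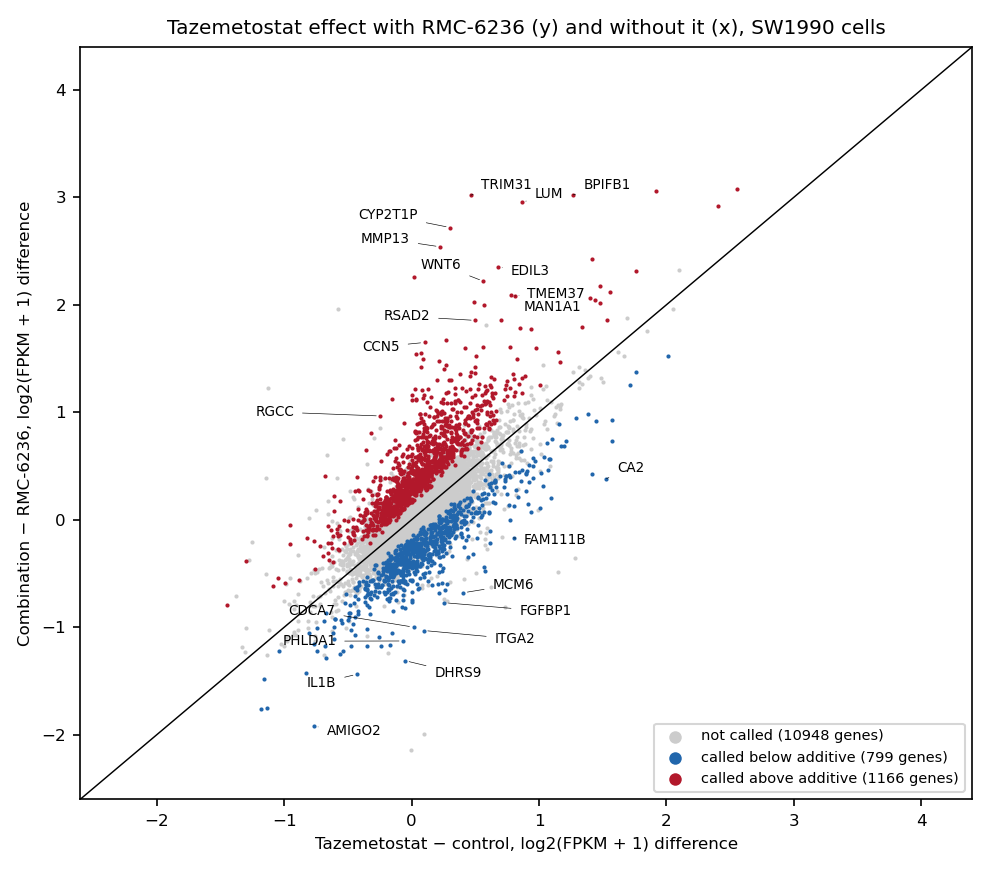
Each point is 1 of the 12913 tested genes, with the combination − RMC-6236 difference on the vertical axis and the tazemetostat − control difference on the horizontal axis, both as log2(FPKM + 1). Genes on the line are additive; the 1166 red genes were called above additive and the 799 blue genes below, and the labelled genes are among the 12 furthest from the line in each direction of those called genes that averaged 5 FPKM or more in some arm and were above 0 in every library, so some unlabelled genes lie further out.

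The genes called furthest above additive are described here for those that averaged 5 FPKM or more in some arm and were above 0 in every library. Apart from RGCC, these 12 genes were under 1 FPKM in every control library and over 6 FPKM in every combination library. TRIM31, which encodes a RING-type E3 ubiquitin ligase, had 11.1, 11.4 and 10.1 FPKM with the combination, 0.406, 0.505 and 0.469 with RMC-6236, 0.538, 0.541 and 0.544 with tazemetostat, and 0.0561, 0.117 and 0.179 in controls. Each single drug left TRIM31 under 1 FPKM in every library, and no library of another arm came near the combination. Its interaction was 2.56 ± 0.08 (SE, n = 3 per arm, limma adjusted p = 2e-09). TRIM31 is 1 of the 136 genes that the combination alone carried past the filter, so a gene of this kind entered the test only because it was high there. MMP13, a collagenase that degrades fibrillar collagen, had 18.1, 18.7 and 19.9 FPKM with the combination, 2, 2.62 and 2.67 with RMC-6236, 0.815, 0.739 and 0.507 with tazemetostat, and 0.454, 0.289 and 0.595 in controls. The tazemetostat and control libraries overlapped for MMP13, and the other arms did not overlap with them. The interaction of MMP13 was 2.32 ± 0.14 (adjusted p = 3.7e-07).

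Several of the other genes in this group encode secreted proteins. LUM, which encodes the matrix proteoglycan lumican, had 23.6, 20.9 and 22.6 FPKM with the combination, 1.68, 2.26 and 2.12 with RMC-6236, 1.24, 1.33 and 1.54 with tazemetostat, and 0.188, 0.347 and 0.372 in controls. Each drug raised LUM and the 4 arms did not overlap, and the interaction was 2.09 ± 0.12 (adjusted p = 2.3e-07). LUM is also a fibroblast marker, and the summed FPKM of the 7 fibroblast markers ran from 25.2 to 28.3 with the combination, 3.76 to 4.59 with RMC-6236, 2.43 to 2.82 with tazemetostat and 0.80 to 1.12 in controls; LUM and COL1A1 alone passed 1 FPKM, and the part of fibroblast RNA in the result was not tested. CCN5, a matricellular protein, had 16.9, 17.5 and 18.7 FPKM with the combination, 4.72, 5.13 and 5.02 with RMC-6236, 0.156, 0.106 and 0.117 with tazemetostat, and 0.0406, 0.0409 and 0.0651 in controls. Tazemetostat alone gave no called change in CCN5 (0.10, adjusted p = 0.14), and on top of RMC-6236 it raised the gene by 1.65. WNT6, a WNT ligand, had 8.56, 7.7 and 8.28 FPKM with the combination, 0.89, 1.24 and 0.806 with RMC-6236, 0.512, 0.662 and 0.501 with tazemetostat, and 0.0468, 0.0505 and 0.0618 in controls, with an interaction of 1.66 ± 0.11 (adjusted p = 6.8e-07).

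Because control levels in this group lie under 1 FPKM, the pseudocount sets part of the size. With a pseudocount of 0.1 in place of 1 the interaction stayed called at 2.69 for TRIM31, 2.37 for MMP13, 1.51 for LUM and 1.21 for CCN5. It was smaller but still called for WNT6 (0.86, adjusted p = 0.017), for BPIFB1, a secreted protein of the BPI fold family (0.77 against 1.76 with a pseudocount of 1), and for TMEM37 (0.71 against 1.27). For MAN1A1, a Golgi mannosidase that trims N-glycans, the interaction of 1.31 became 0.73 and was no longer called (adjusted p = 0.089). EDIL3, an integrin-binding matrix protein, and the pseudogene CYP2T1P completed the low-control genes with 1.67 ± 0.08 and 2.42 ± 0.07, and EDIL3 also passed the filter through the combination alone. Reads of CYP2T1P may be shared with related CYP2 genes, so its level is uncertain.

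RGCC differed from the others in that control cells expressed it. RGCC, a regulator of cell cycle progression, had 15.3, 15.9 and 15.3 FPKM with the combination, 6.86, 8.58 and 6.99 with RMC-6236, 8.27, 7.98 and 8.06 with tazemetostat, and 9.74, 10.4 and 9.27 in controls. Each single drug lowered RGCC, whereas the combination libraries lay above every other library. The interaction was 1.21 ± 0.09 (adjusted p = 3e-06) and 1.32 with a pseudocount of 0.1.

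**Figure D2:**
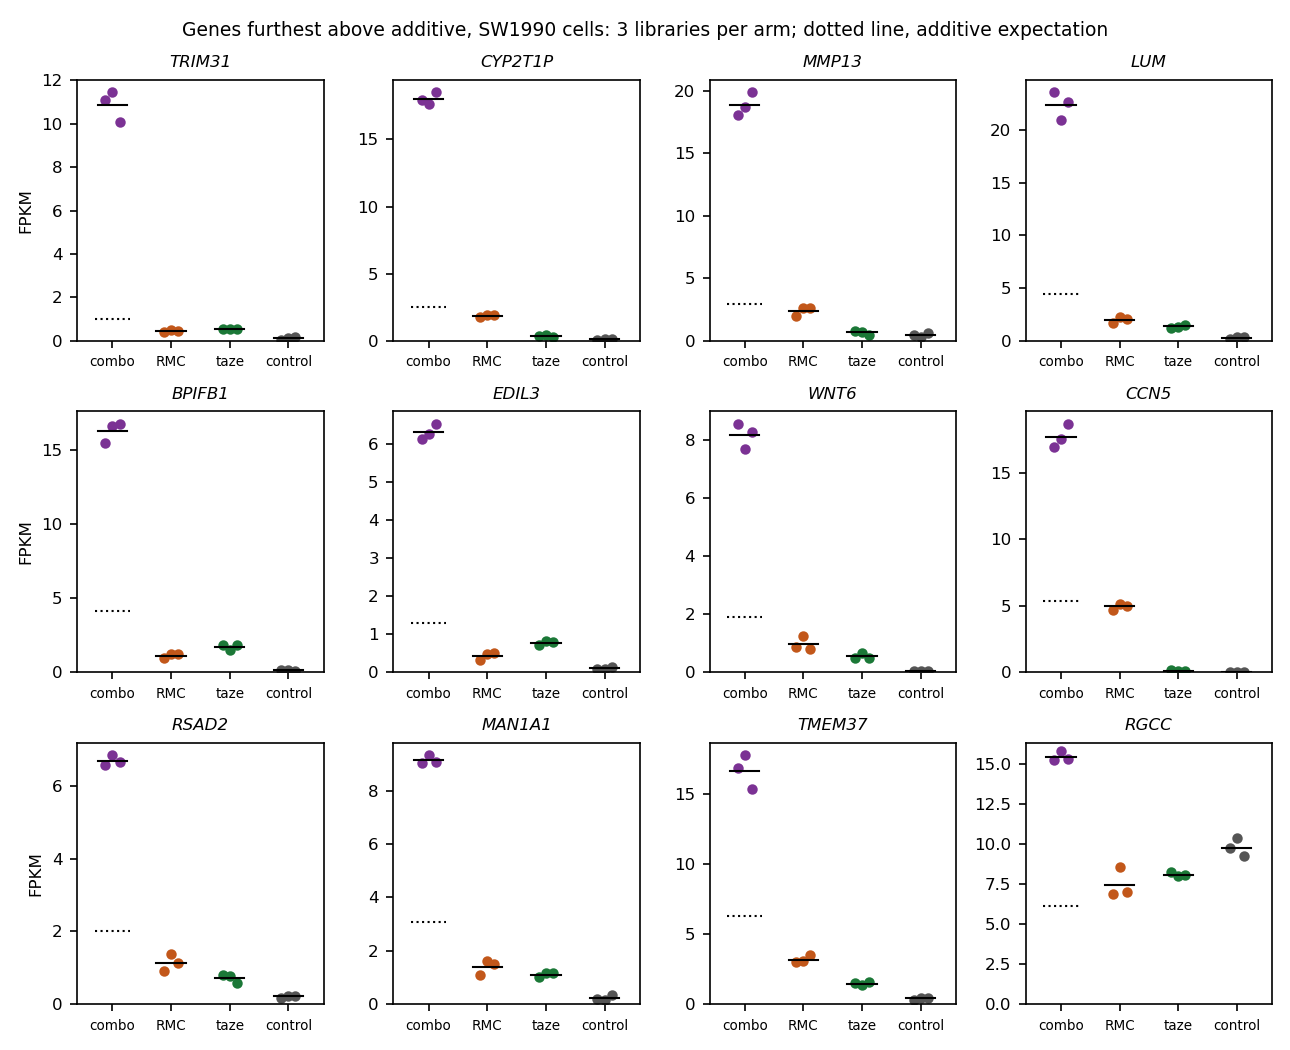
FPKM of the 12 genes furthest above additive, 1 panel per gene, with 3 libraries per arm as points, the arm mean as a solid line and the additive expectation on the log2(FPKM + 1) scale as a dotted line in the combination arm. The combination libraries lie above the dotted line and above all 9 other libraries in every panel; TRIM31 stays under 1 FPKM in each of the other arms.

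The genes furthest below additive were mostly expressed in controls, lowered by RMC-6236, and lowered further only when tazemetostat was added to it. DHRS9, a short-chain dehydrogenase that oxidises retinol, had 11.1, 11.4 and 11.1 FPKM with the combination, 27.4, 29.5 and 31.1 with RMC-6236, 55.9, 54.5 and 56.1 with tazemetostat, and 56.1, 57.4 and 59.2 in controls. Tazemetostat alone gave no called change in DHRS9 (-0.05, adjusted p = 0.37), and on top of RMC-6236 it lowered the gene by 1.31 on the log2 scale. The interaction was -1.26 ± 0.06 (adjusted p = 7.3e-08). ITGA2, the collagen-binding integrin alpha subunit, had 8.38, 7.88 and 8.51 FPKM with the combination, 14.2, 20.5 and 19.7 with RMC-6236, 47.4, 45.4 and 46.8 with tazemetostat, and 36.8, 46.9 and 47.7 in controls. The ranges of the tazemetostat and control libraries overlapped for ITGA2, the RMC-6236 libraries lay under both and the combination libraries were lowest, with an interaction of -1.13 ± 0.17 (adjusted p = 0.00098). The lowest RMC-6236 library of ITGA2 was replicate 1.

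PHLDA1, a gene induced by RAS-MAPK signalling, had 2.45, 2.49 and 2.46 FPKM with the combination, 5.99, 6.88 and 6.89 with RMC-6236, 22.3, 22 and 23.3 with tazemetostat, and 22.8, 24.5 and 23.7 in controls (interaction -1.06 ± 0.07, adjusted p = 9.2e-07). IL1B, the cytokine interleukin-1 beta, had 9.05, 8.9 and 8.83 FPKM with the combination, 23.6, 26.8 and 27.4 with RMC-6236, 36.3, 37.3 and 38.8 with tazemetostat, and 50.7, 50.7 and 50.9 in controls (-1.01 ± 0.07, adjusted p = 8.9e-07). Both single drugs lowered IL1B and its 4 arms did not overlap. AMIGO2, a cell adhesion protein, showed the same order with 3.04, 3.18 and 3.24 FPKM with the combination, 12.6, 16.6 and 15.4 with RMC-6236, 28.1, 27.6 and 28 with tazemetostat and 44.5, 51.6 and 48.7 in controls. The interaction of AMIGO2 was -1.16 ± 0.11 (adjusted p = 1.7e-05), and on untransformed FPKM its departure had the opposite sign. FGFBP1, a secreted carrier of fibroblast growth factors, CDCA7, a replication-linked chromatin protein, and NRARP, a feedback inhibitor of Notch signalling, had interactions of -1.03 ± 0.05, -1.01 ± 0.12 and -1.0 ± 0.11.

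CA2 and FAM111B followed another pattern, in which tazemetostat raised the gene alone and did so less or not detectably with RMC-6236 present. CA2, a cytosolic carbonic anhydrase, had 7.75, 7.95 and 7.81 FPKM with the combination, 5.48, 6.01 and 5.85 with RMC-6236, 11.8, 12.2 and 11.2 with tazemetostat, and 3.44, 3.41 and 3.37 in controls. Its combination libraries lay between those of the single drugs, and the interaction was -1.15 ± 0.06 (adjusted p = 2.3e-07). FAM111B had 3.57, 3.21 and 3.99 FPKM with the combination, 3.45, 4.88 and 4.23 with RMC-6236, 16.1, 15.9 and 16.3 with tazemetostat, and 7.39, 9.05 and 10.2 in controls. Tazemetostat raised FAM111B by 0.80 alone and gave no called change on top of RMC-6236 (-0.17, adjusted p = 0.22).

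**Figure D3:**
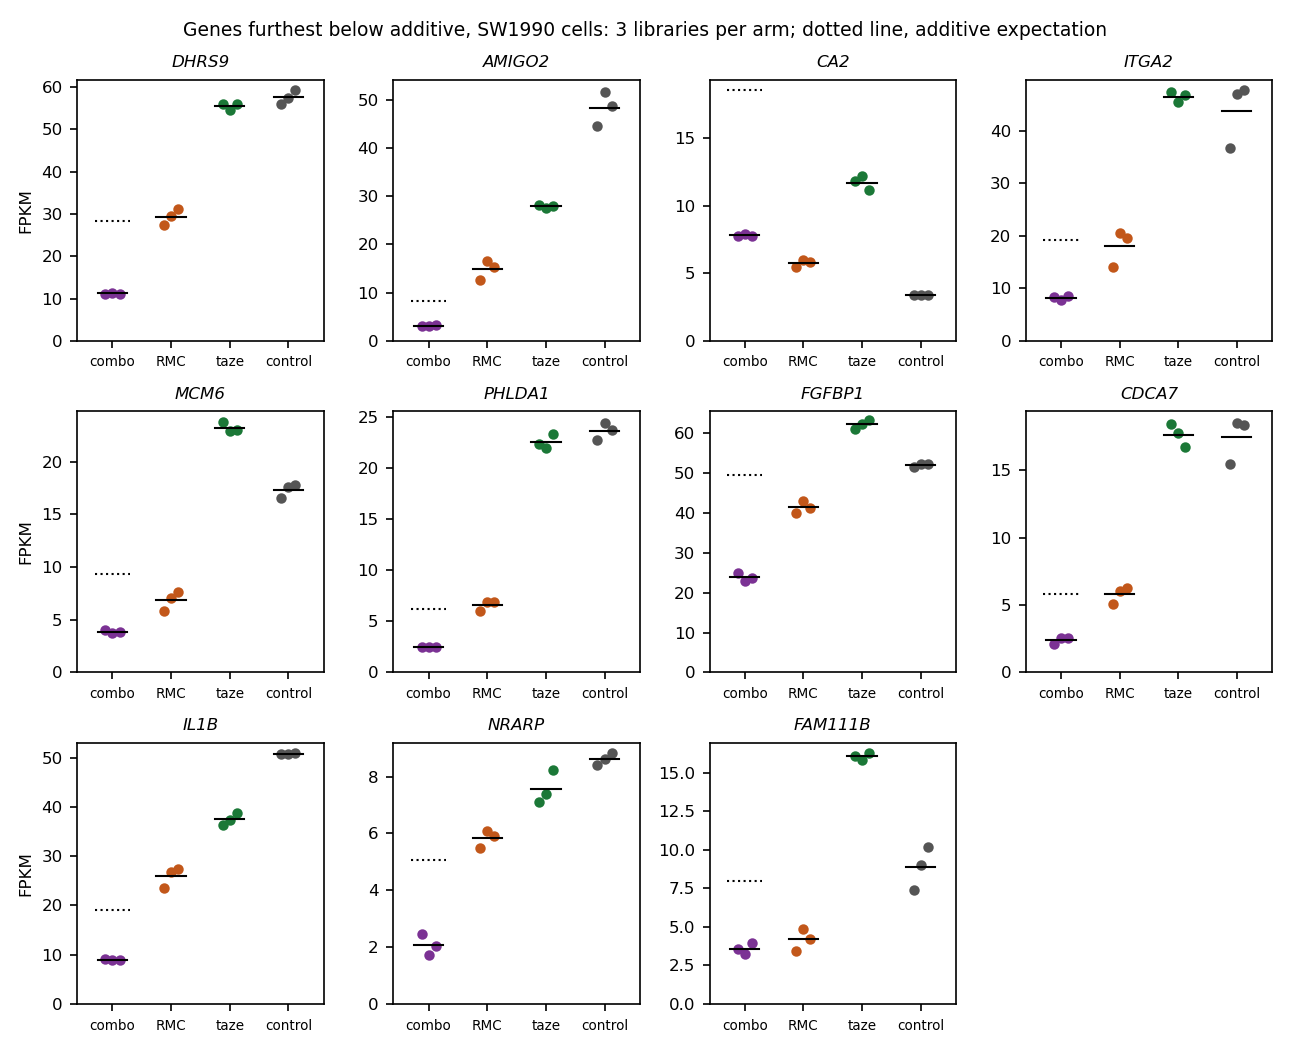
FPKM of 11 of the 12 genes furthest below additive, drawn as for the genes above additive, with the additive expectation as a dotted line. DHRS9 has 11.1 to 11.4 FPKM with the combination against 27.4 FPKM or more in every other library, whereas the combination libraries of CA2 lie between those of tazemetostat and RMC-6236.

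Genes were then grouped by 31 lists of pathways and cell programmes, and the counts below are read against 9.03% of all tested genes above and 6.19% below additive. The highest share above additive among the 31 lists was in interferon-stimulated genes, the antiviral and signalling genes that cells switch on when interferon or foreign nucleic acid is sensed. Of 48 members 46 passed the filter, and 38 of the 46 lay above additive (82.6%) and 0 below by limma, with 41 and 0 at an unadjusted p under 0.05 and 33 and 0 with a pseudocount of 0.1. The median interaction of the list was 0.56, against 0.01 over all tested genes. RMC-6236 alone raised 44 of 46 members, tazemetostat alone raised 15 and lowered 3, and tazemetostat on top of RMC-6236 raised 42 and lowered 0. All 3 combination libraries exceeded all 9 others for 43 members. Leaving out RMC-6236 replicate 1 also gave 38 members above and 0 below, with a median of 0.47.

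RSAD2, the antiviral enzyme viperin, had 6.59, 6.86 and 6.68 FPKM with the combination, 0.908, 1.37 and 1.14 with RMC-6236, 0.794, 0.758 and 0.584 with tazemetostat, and 0.175, 0.22 and 0.231 in controls. Both drugs raised RSAD2 and the combination stood far above either, with an interaction of 1.36 ± 0.11 (adjusted p = 2.8e-06). MX1, a GTPase that blocks viral replication, had 8.75, 8.62 and 8.8 FPKM with the combination, 2.97, 3.27 and 3.25 with RMC-6236, 0.935, 1.02 and 0.813 with tazemetostat, and 0.536, 0.533 and 0.477 in controls (0.88 ± 0.07, adjusted p = 6.5e-06). The 4 arms of MX1 did not overlap. OAS2, a sensor of viral RNA that activates RNase L, had 13.9, 13 and 13.5 FPKM with the combination, 5.07, 6.2 and 5.72 with RMC-6236, 1.8, 1.92 and 1.84 with tazemetostat, and 1.25, 1.45 and 1.54 in controls (0.88 ± 0.09, adjusted p = 3.6e-05).

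IFI44L showed a change of direction. It had 8.24, 7.78 and 8.03 FPKM with the combination, 3.42, 4.74 and 4.33 with RMC-6236, 1.22, 1.29 and 1.16 with tazemetostat, and 1.78, 1.86 and 1.68 in controls. Tazemetostat alone lowered IFI44L by 0.32 on the log2 scale (adjusted p = 0.0064) and on top of RMC-6236 raised it by 0.81 (adjusted p = 2.2e-06). Among upstream regulators the interaction was 0.42 for IRF7, which was called, and 0.20 for STAT2 (adjusted p = 0.081) and -0.20 for IRF9 (adjusted p = 0.7), neither called; these 3 genes were picked after their values were seen.

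Antigen presentation genes departed in the same direction. MHC class I heavy chains and the proteasome, transporter and chaperone genes that load them with peptide had 12 of 19 members above additive (63.2%) and 0 below by limma, with 14 and 0 at an unadjusted p under 0.05 and a median of 0.21. TAP1, a subunit of the peptide transporter, had 153, 152 and 150 FPKM with the combination, 113, 117 and 120 with RMC-6236, 83.7, 85.6 and 83.1 with tazemetostat, and 95.8, 89.8 and 88.2 in controls. Tazemetostat alone lowered TAP1 slightly (-0.12, adjusted p = 0.019) and on top of RMC-6236 raised it (0.37, adjusted p = 1.6e-06), for an interaction of 0.49 ± 0.05 (adjusted p = 2.4e-05). HLA-E, a nonclassical class I molecule, and the immunoproteasome subunits PSMB8 and PSMB10 had interactions of 0.41, 0.36 and 0.40. HLA genes are close in sequence, so reads may be split among them.

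Of 11 MHC class II genes 6 passed the filter, and tazemetostat raised 5 of them and lowered 0 on top of RMC-6236, and raised 5 and lowered 1 alone. The member lowered was CTSS, the protease cathepsin S (-0.44 alone and -0.17 on top of RMC-6236). HLA-DRA, the DR alpha chain, had 37.2, 39 and 39.6 FPKM with the combination, 3.28, 3.95 and 3.91 with RMC-6236, 20.1, 18.1 and 19.3 with tazemetostat, and 2.01, 2.99 and 2.34 in controls. Tazemetostat raised HLA-DRA by 3.07 on top of RMC-6236 and by 2.56 alone. The interaction of 0.52 (adjusted p = 0.014) became 0.41 with a pseudocount of 0.1 and was no longer called (adjusted p = 0.12). The invariant chain CD74 rose by 0.49 on top of RMC-6236 and by 0.26 alone, with an interaction of 0.23. Of the 6 tested genes 4 were above additive (HLA-DRA, HLA-DRB1, HLA-DQB1 and CD74), and with a pseudocount of 0.1 CD74 was the 1 still called. Reads of HLA-DRB1 and HLA-DQB1 may be shared with their close paralogs.

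NF-kB feedback targets, the genes through which the inflammatory transcription factor NF-kB restrains or sustains itself, had 9 of 12 tested members (of 14 listed) above additive and 1 below (TNIP1, -0.17), with a median of 0.39. TNFAIP2 had 83.5, 80.1 and 79.6 FPKM with the combination, 35.6, 38.6 and 39 with RMC-6236, 52.1, 53.8 and 52.8 with tazemetostat, and 44.7, 45.4 and 42.9 in controls. RMC-6236 alone lowered TNFAIP2 and the combination had the highest libraries, with an interaction of 0.83 ± 0.05 (adjusted p = 7e-07). NFKBIZ, a nuclear IkB protein, had an interaction of 0.71, BIRC3, an inhibitor of apoptosis and ubiquitin ligase, 0.69, and BCL3, an IkB family coactivator, 0.44. Cytokine genes were split. Of 28 chemokines, interleukins and colony-stimulating factors 16 passed the filter, of which 2 lay above additive (CXCL1 at 0.96 and CCL5 at 0.58) and 4 below (IL1B, IL1A, IL1RN and CSF1); CXCL1 passed the filter through the combination alone, CCL5 was not called with a pseudocount of 0.1 (adjusted p = 0.1), and IL1A lost its call without any 1 library other than RMC-6236 replicate 1 (largest adjusted p = 0.1).

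Complement and acute phase genes had 6 of 14 tested members (of 21 listed) above additive and 1 below (SERPINA1), and 3 above with a pseudocount of 0.1; 3 of the 14 passed the filter through the combination alone. CFB, complement factor B, had 35.7, 37.3 and 36.7 FPKM with the combination, 10.5, 11.4 and 12.2 with RMC-6236, 4.28, 5.01 and 5.03 with tazemetostat, and 2.38, 2.4 and 2.35 in controls. Each drug raised CFB and its 4 arms did not overlap (interaction 0.83 ± 0.09, adjusted p = 2.9e-05). The initiating proteases C1S and C1R had interactions of 1.0 and 0.77, and C1R was not called with a pseudocount of 0.1 (adjusted p = 0.087).

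**Figure D4:**
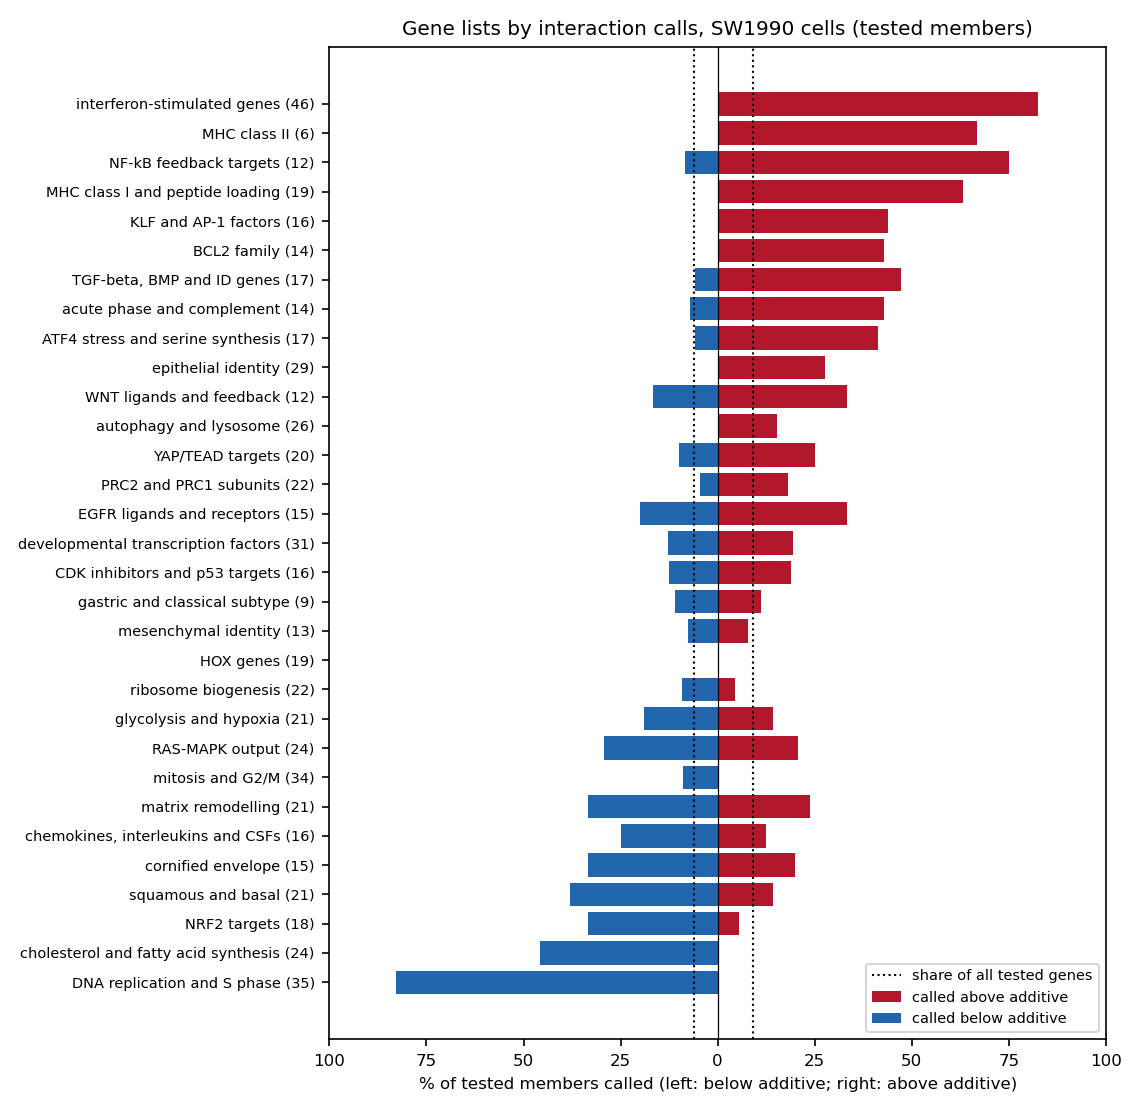
Percentage of the tested members of each of 31 gene lists called above additive (bars to the right) and below additive (bars to the left), with the number of tested members in brackets and the shares of all tested genes (9.03% and 6.19%) as dotted lines. Interferon-stimulated genes reach 82.6% above and DNA replication genes 82.9% below, each with no member called the other way.

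DNA replication genes showed the opposite departure. These are the E2F targets that license origins, unwind DNA and supply nucleotides as cells enter S phase. All 35 members were tested, 29 lay below additive (82.9%) and 0 above by limma, with 35 and 0 at an unadjusted p under 0.05, and the median interaction was -0.44. RMC-6236 alone lowered 34 of them, with a median change of -1.06. Tazemetostat alone raised 13 and lowered 0, whereas on top of RMC-6236 it lowered 31 and raised 1. All 3 combination libraries lay under all 9 others for 31 members. The count was 29 with a pseudocount of 0.1, 34 after median-ratio rescaling and 35 without RMC-6236 replicate 1.

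MCM6, a subunit of the replicative helicase, had 4.04, 3.76 and 3.8 FPKM with the combination, 5.84, 7.06 and 7.6 with RMC-6236, 23.8, 22.9 and 23 with tazemetostat, and 16.5, 17.6 and 17.8 in controls. The arms did not overlap, and tazemetostat had the highest libraries while the combination had the lowest. The change with tazemetostat was -0.68 on top of RMC-6236 (adjusted p = 3.5e-06) and 0.41 alone (adjusted p = 0.00052), for an interaction of -1.09 ± 0.10 (adjusted p = 9.8e-06). E2F1, the transcription factor at the head of this programme, had 7.71, 8.34 and 8.15 FPKM with the combination, 12.4, 14.1 and 13.2 with RMC-6236, 44.5, 45.8 and 46.6 with tazemetostat, and 38.8, 38.8 and 36.1 in controls. E2F1 thus followed the same order as MCM6 (-0.91 ± 0.07, adjusted p = 2.1e-06). MCM4, another helicase subunit, had 10.1, 10 and 9.81 FPKM with the combination, 16.4, 18.2 and 18.4 with RMC-6236, 44.7, 44.1 and 44.3 with tazemetostat, and 42.8, 44.9 and 44.9 in controls, and tazemetostat changed it by -0.77 on top of RMC-6236 and by 0.01 alone (adjusted p = 0.94).

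Fewer mitotic genes were called. Of 34 tested genes of mitosis and G2/M, 3 lay below additive (8.82%, near the 6.19% of all tested genes) and 0 above by limma. At an unadjusted p under 0.05 the counts were 9 and 0, and the median interaction was -0.13. The 3 called members were AURKA at -0.24, NUSAP1 at -0.25 and BIRC5 at -0.16. Each of these 3 calls was lost without 10 or 11 of the 12 single libraries, with largest adjusted p of 0.077, 0.11 and 0.12. This count rested on RMC-6236 replicate 1 as well: without it 17 members lay below additive, and after median-ratio rescaling 5 did. Ribosome biogenesis genes fell with RMC-6236 in all 22 members. The interaction placed 2 below additive (9.09%, BOP1 and NOP56) and 1 above (4.55%, MYC), against 6.19% and 9.03% of all tested genes. Without RMC-6236 replicate 1, 5 members lay below, and 4 did after median-ratio rescaling. MYC had 8.26, 7.36 and 7.66 FPKM with the combination, 7.9, 9.27 and 8.76 with RMC-6236, 20.3, 20.3 and 20.7 with tazemetostat, and 28.5, 28.2 and 28.7 in controls. Tazemetostat lowered MYC by 0.46 on the log2 scale alone and by 0.14 on top of RMC-6236, an interaction of 0.32 ± 0.07 (adjusted p = 0.01).

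**Figure D5:**
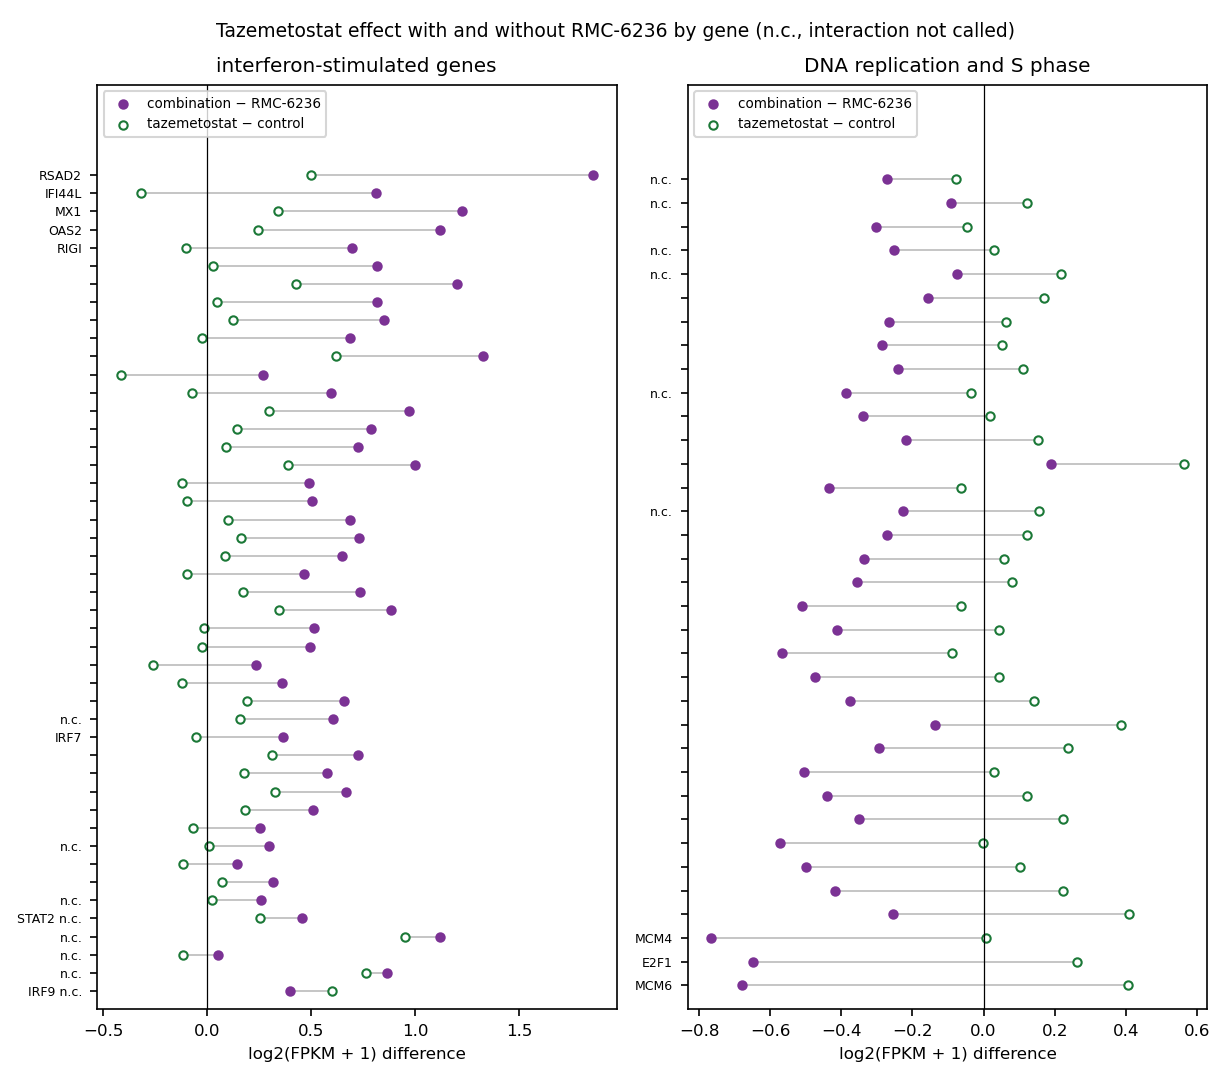
Tazemetostat effect on each tested member of the interferon-stimulated list (left, 46 genes) and the DNA replication list (right, 35 genes), as the combination − RMC-6236 difference (filled) and the tazemetostat − control difference (open) in log2(FPKM + 1), ordered by the interaction. Filled points lie to the right of open points in 45 of 46 interferon-stimulated genes and to the left in all 35 replication genes; n.c. marks members whose interaction was not called, and names are given for the genes in the text.

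Direct outputs of RAS-MAPK signalling were split. RMC-6236 lowered 22 of 24 tested members, with a median change of -1.89, and the interaction placed 5 above additive and 7 below. The members below were cyclin D1 (CCND1), PHLDA1, PHLDA2, IER3, FOSL1, SPRED1 and KCNN4. CCND1, which carries cells through G1, had 37, 37.5 and 38.9 FPKM with the combination, 65.5, 70.3 and 70.6 with RMC-6236, 70.8, 68.8 and 70.5 with tazemetostat, and 77.5, 76.9 and 77.9 in controls. Each drug alone lowered CCND1 by a small amount and the combination libraries were lowest, with an interaction of -0.70 ± 0.05 (adjusted p = 9.2e-07). The members above additive were EGR1 (0.56), FOS (0.54), EPHA4 (0.43), DUSP6 (0.38) and SPRY2 (0.38). DUSP6, a phosphatase that switches off ERK, had 0.155, 0.169 and 0.197 FPKM with the combination, 0.08, 0.18 and 0.109 with RMC-6236, 25, 24.9 and 27.3 with tazemetostat, and 32.1, 32.9 and 31.7 in controls. Its combination and RMC-6236 libraries overlapped near 0, and the tazemetostat libraries lay under those of controls.

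Receptors and ligands upstream of RAS were split as well, with 5 of 15 tested members above additive (NRG1, HBEGF, TGFA, ERBB3 and ERBB2) and 3 below (FGFR3, EGFR and AREG). Without RMC-6236 replicate 1 the list had 5 above and 6 below, and after median-ratio rescaling 5 and 5. NRG1, a ligand of ERBB3, had 1.39, 1.22 and 1.24 FPKM with the combination, 2.67, 3.09 and 3.11 with RMC-6236, 3.7, 3.45 and 3.65 with tazemetostat, and 10.7, 12 and 11.9 in controls. Tazemetostat lowered NRG1 in both settings, by 0.79 on top of RMC-6236 and by 1.45 alone on the log2 scale. EGFR had 16.8, 16.5 and 16.8 FPKM with the combination, 19.7, 23.7 and 23.7 with RMC-6236, 25.3, 25.2 and 25.7 with tazemetostat, and 23.4, 27 and 25.9 in controls, with an interaction of -0.40 ± 0.09 (adjusted p = 0.011).

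Of 24 genes of cholesterol and fatty acid synthesis 11 were called below additive (45.8%) and 0 above by limma, with 13 and 0 at an unadjusted p under 0.05 and a median of -0.21. On untransformed FPKM the departure was negative for 17 of the 24 and positive for 7. Tazemetostat lowered 23 of them on top of RMC-6236 and 21 alone. FASN, the fatty acid synthase, had 29.1, 29.6 and 30.2 FPKM with the combination, 66.9, 72.4 and 72.6 with RMC-6236, 47.5, 48.5 and 48.3 with tazemetostat, and 72.8, 69.9 and 68.2 in controls. RMC-6236 alone gave no called change in FASN, and the interaction was -0.68 ± 0.05 (adjusted p = 2.7e-06). ACACA, the carboxylase before FASN in the pathway, had an interaction of -0.40 (adjusted p = 0.00086).

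Regulators of apoptosis departed upward in 6 of 14 tested BCL2 family members, with 0 below by limma, also at an unadjusted p under 0.05; 1 of the 14, HRK, passed the filter through the combination alone. They include pro-apoptotic BH3-only genes and pro-survival genes alike. HRK, a BH3-only gene, had 1.55, 1.52 and 1.64 FPKM with the combination, 0.235, 0.216 and 0.262 with RMC-6236, 0.18, 0.128 and 0.11 with tazemetostat, and 0.0468, 0.025 and 0.0279 in controls. Its combination libraries alone passed 1 FPKM, with an interaction of 0.91 ± 0.07 (adjusted p = 2.1e-06). BMF, another BH3-only gene, had 20.4, 20.6 and 21.1 FPKM with the combination, 9.01, 9.28 and 9.44 with RMC-6236, 0.577, 0.603 and 0.725 with tazemetostat, and 0.19, 0.193 and 0.177 in controls; its interaction was 0.62 ± 0.07 but -0.20 (adjusted p = 0.29) with a pseudocount of 0.1, so its direction depends on the pseudocount. The pro-survival gene MCL1 had 55.2, 56.5 and 57.9 FPKM with the combination, 43, 52.5 and 53.1 with RMC-6236, 59.1, 59.3 and 59.3 with tazemetostat, and 73.1, 78.2 and 80.7 in controls, with an interaction of 0.57 ± 0.09 (adjusted p = 0.00098). BBC3, which encodes PUMA, had an interaction of 0.53.

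Among identity genes, 8 of 29 tested epithelial members lay above additive and 0 below by limma, with 10 and 4 at an unadjusted p under 0.05; 1 of the 29 passed the filter through the combination alone. The count below rested on 1 library and on the scaling, with 10 above and 3 below without RMC-6236 replicate 1, and 8 and 3 after median-ratio rescaling. KRT18, a keratin of simple epithelia, had 113, 112 and 116 FPKM with the combination, 80.9, 81.5 and 83.4 with RMC-6236, 292, 294 and 293 with tazemetostat, and 305, 292 and 286 in controls (interaction 0.47 ± 0.04, adjusted p = 7.7e-06). MUC1, a transmembrane mucin, had 54.6, 57 and 53.5 FPKM with the combination, 22.4, 22.6 and 23.3 with RMC-6236, 12.5, 12.9 and 12.1 with tazemetostat, and 8.1, 7.72 and 7.44 in controls, with an interaction of 0.61 ± 0.06 (adjusted p = 1.5e-05). RMC-6236 lowered KRT18 and raised MUC1, so a positive interaction accompanied opposite single responses. MUC1 is counted in the gastric or classical subtype list, not among the 8 epithelial members. Squamous and basal genes had 8 of 21 tested members below additive and 3 above (KRT16, SERPINB4 and LAMB3). TP63, the master transcription factor of basal epithelium, had 1.01, 1.05 and 1.02 FPKM with the combination, 5.35, 6.19 and 6.11 with RMC-6236, 2.77, 2.59 and 2.55 with tazemetostat, and 6.8, 7.42 and 7.53 in controls (-0.58 ± 0.08, adjusted p = 0.00039). KRT16 and SERPINB4 were not called with a pseudocount of 0.1 (adjusted p = 0.9 and 0.43). Mesenchymal genes had shares near those of all genes, with 1 of 13 above (COL1A1, not called with a pseudocount of 0.1, adjusted p = 0.31) and 1 below, and 1 and 3 without RMC-6236 replicate 1.

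Of 22 tested PRC2 and PRC1 subunits, 4 lay above additive (18.2%), CBX6, PCGF2 and EZH1 among them, and EZH2 alone below (4.55%). Without RMC-6236 replicate 1, 4 lay above and 4 below, and with a pseudocount of 0.1, 2 and 1. EZH2 had 6, 5.76 and 5.69 FPKM with the combination, 5.09, 6.39 and 6.03 with RMC-6236, 13.4, 12.2 and 13.1 with tazemetostat, and 9, 9.59 and 9.68 in controls. Tazemetostat raised EZH2 by 0.41 alone (adjusted p = 0.0003) and gave 0.00 on top of RMC-6236 (adjusted p = 1), for an interaction of -0.41 ± 0.09 (adjusted p = 0.0088). Tazemetostat acts on the protein, so the EZH2 transcript does not check the labels. EZH1 lost its call without 10 of the 12 single libraries (largest adjusted p = 0.13). HOX genes are of the kind that polycomb silences, but the filter kept only the 19 of 39 listed that were expressed here. Those under the filter were not tested. Of the 19, 0 departed in either direction by limma, also with a pseudocount of 0.1, and at an unadjusted p under 0.05 there were 2 above and 0 below. Other developmental transcription factors had 6 of 31 above and 4 below (9 and 3 after median-ratio rescaling), led by DLX3 with 6.28, 6.76 and 6.2 FPKM with the combination, 1.77, 1.94 and 1.61 with RMC-6236, 1.25, 1.28 and 1.74 with tazemetostat, and 0.652, 0.765 and 0.698 in controls (0.92 ± 0.11, adjusted p = 8.2e-05).

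Signalling ligands and stress genes gave smaller groups. TGF-beta, BMP and ID genes had 8 of 17 tested members above additive and 1 below (SMAD3; 2 without RMC-6236 replicate 1), with BAMBI, a decoy receptor, at 0.67 and the ligands BMP6 and BMP4 at 0.61 and 0.47. WNT genes had 4 of 12 above (WNT6, AXIN2, DKK1 and WNT7B) and 2 below (WNT9A and ZNRF3). AXIN2, a feedback gene induced by beta-catenin, had 1.89, 1.92 and 2.24 FPKM with the combination, 0.209, 0.229 and 0.218 with RMC-6236, 0.319, 0.323 and 0.435 with tazemetostat, and 0.0711, 0.121 and 0.0956 in controls (1.0 ± 0.08, adjusted p = 5e-06), and it passed the filter through the combination alone. The ATF4 stress list had 7 of 17 above and 1 below (SLC7A5), including ATF4 at 0.40 and CEBPB at 0.57. KLF and AP-1 factors had 7 of 16 above and 0 below by limma, with 11 and 0 at an unadjusted p under 0.05 and 4 above with a pseudocount of 0.1; 2 of the 16 passed the filter through the combination alone.

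Targets of the oxidative stress factor NRF2 had 6 of 18 tested members below additive, 9 without RMC-6236 replicate 1, and 1 above, ALDH1A1. ALDH1A1, a retinaldehyde dehydrogenase, had 2.08, 2.2 and 2.13 FPKM with the combination, 0.119, 0.173 and 0.222 with RMC-6236, 0.0706, 0.0615 and 0.0788 with tazemetostat, and 0, 0.0152 and 0.0349 in controls. No library outside the combination passed 1 FPKM, so the combination alone carried it past the filter, and its interaction was 1.35 ± 0.07 (adjusted p = 1.3e-07). Matrix remodelling genes were split, with 5 of 21 above (MMP13, MMP7, LOXL4, MMP2 and MMP14) and 7 below; MMP7 passed the filter through the combination alone. PLAU, the urokinase protease and 1 of those below, had 7.64, 7.91 and 7.76 FPKM with the combination, 11.1, 12.6 and 13.1 with RMC-6236, 24.3, 23.9 and 23.9 with tazemetostat, and 25, 24.5 and 24.5 in controls (-0.56 ± 0.07, adjusted p = 0.00013). Lists of YAP/TEAD targets (5 above, 2 below of 20), glycolysis and hypoxia (3 and 4 of 21), cornified envelope (3 and 5 of 15), autophagy and lysosome (4 and 0 of 26), CDK inhibitors and p53 targets (3 and 2 of 16) and gastric or classical subtype genes (1 and 1 of 9) departed in both directions or in few members. Without RMC-6236 replicate 1 the counts above and below were 5 and 5 for YAP/TEAD targets, 4 and 3 for CDK inhibitors and p53 targets, 2 and 6 for cornified envelope and 4 and 1 for autophagy and lysosome.

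The same contrast was fitted separately in PSN1 cells, another established human pancreatic cancer line, and in mouse KPC pancreatic cancer cells, with no test between tables. The interaction was called above additive for 9.8% and below for 13.8% of genes tested in PSN1, and for 12.1% and 13.7% in KPC cells. Of 939 genes above additive in SW1990 and also tested in PSN1, 205 lay above additive there (21.8%, against 9.41% of all genes tested in both) and 198 below (21.1%, against 13.9%). Of 701 genes below additive in SW1990, 191 lay below in PSN1 (27.2%) and 107 above (15.3%). The 205 shared genes were 18.9% of the PSN1 genes above additive, and the 191 shared genes 11.9% of those below. In KPC cells, with genes matched by symbol, 176 of 744 SW1990 genes above additive lay above. This was 23.7%, against 11.8% of all genes tested in both. Another 165 of the 744 lay below (22.2%, against 14.6%). Of 564 SW1990 genes below additive, 146 lay below in KPC cells (25.9%) and 73 above (12.9%).

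For the leading genes the values in PSN1 differed widely. Of the 12 genes furthest above additive, 7 lay above in PSN1, 1 below and 4 were not called. The 7 include WNT6, TRIM31 and CYP2T1P. In PSN1 these averaged 2.88, 1.57 and 1.26 FPKM with the combination and under 1 FPKM in each other arm. The PSN1 filter kept them because they were high there, so their calls are a description. The PSN1 interaction was 2.61 for MMP13, 1.85 for BPIFB1, 1.78 for WNT6 and 3.04 for ALDH1A1, all called and in the SW1990 direction. TRIM31 had 0.50 in PSN1, also called, while CCN5 had 0.00 (adjusted p = 0.99), EDIL3 0.13 (0.15) and RGCC 0.06 (0.86), none of them called. Of the 11 genes below additive that are shown, 9 were tested in PSN1, and 7 lay below there and 2 were not called. For the interferon-stimulated genes named here it was 0.19 for RSAD2 (adjusted p = 0.18), 0.19 for IFI44L (0.15), 0.05 for MX1 (0.65) and -0.14 for OAS2 (0.23), none of them called. For the replication genes it was -0.36 for E2F1 (adjusted p = 0.005), -0.11 for MCM6 (0.1) and 0.03 for MCM4 (0.7). FASN, CCND1 and LUM had called interactions of the opposite sign in PSN1, at 0.15, 0.26 and -0.60.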

How the data were processed

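RNA of SW1990 cells was sequenced in 12 libraries from 4 arms, grouped by the sample labels. Per the submitters' processing notes, FastQC 0.11.2, STAR 2.5.3a and StringTie 1.3.1c were used with build hg38, and the authors deposited FPKM values for each cell line, used as deposited. The strand used in counting is not given in the sources used here. Depth is unknown.

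Here, 12913 of 60564 genes with at least 1 FPKM in at least 3 libraries were fitted with limma 3.58.1 (R 4.3.3) on log2(FPKM + 1), 1 mean per arm over the 12 libraries, eBayes with trend and robust options (statmod 1.5.0). Two-sided p-values were adjusted by Benjamini-Hochberg over all tested genes, threshold 0.05; ± is the standard error of the moderated fit. FPKM are not counts, so no count test was used, and fold changes of low genes are understated on this scale. Lists are described by counts and medians, with no set test. The R package data.table (version 1.17.8) served for reading, and figures were drawn with matplotlib 3.10.9. The fit was tested on simulated data. There were 0 identical columns and 0 columns without a sample.

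Named genes are EZH2, the 12 most above and the 12 most below additive among called genes that averaged 5 FPKM or more in some arm, were above 0 in all libraries and had a regular symbol, and up to 4 called members per list; further genes are named where a count is small, or as stated. The contrast, lists and members were chosen with earlier results of these data known. Alternatives were a pseudocount of 0.1, no filter, a filter at 5 FPKM, median-ratio rescaling, a replicate block, plain eBayes (no trend, not robust), and leaving out each library. Counts without RMC-6236 replicate 1 for lists, and rescaling without it, were added after seeing its scale factor. No human promoter or protein sequence was used here, so promoter content is not analysed here. Some genes that the naming rule picks are not reported here. DDX58, SOD2 and LOR were not matched by symbol (RIGI is listed under its current symbol).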

Additional observations from a re-analysis of the deposited data

Results flagged for a closer look

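Of the genes named above, 18 had an interaction of 1 sign in SW1990 and the opposite sign in PSN1 for every choice of 1 library per arm; the difference between the lines was not tested. Positive in SW1990 and negative in PSN1 were LUM (2.09 and -0.60), DKK1 (0.74 and -0.61), NFKBIZ (0.71 and -0.61), BAMBI (0.67 and -0.59), BMF (0.62 and -0.81), BMP6 (0.61 and -0.43), KRT18 (0.47 and -0.62), BMP4 (0.47 and -0.90), BCL3 (0.44 and -0.23), ATF4 (0.40 and -0.11), COL1A1 (0.36 and -0.55), PCGF2 (0.31 and -0.19) and EZH1 (0.30 and -0.16). Negative in SW1990 and positive in PSN1 were CCND1 (-0.70 and 0.26), FASN (-0.68 and 0.15), ACACA (-0.40 and 0.10), BOP1 (-0.32 and 0.08) and NOP56 (-0.25 and 0.17). In PSN1 the values of EZH1, BOP1 and ACACA were not called (adjusted p = 0.057, 0.21 and 0.087). Every sign here is for a pseudocount of 1. With a pseudocount of 0.1 the SW1990 value of BMF was negative, the sign of its PSN1 value above, and not called. COL1A1 was also not called in SW1990 with that pseudocount, and EZH1 lost its SW1990 call without most single libraries.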

How the results depend on the processing

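No gene called above or below additive was called the other way under any alternative. The 1166 genes above and 799 below additive numbered 877 and 763 with a pseudocount of 0.1, of which 866 and 706 are shared with the main calls. At 2-fold or more the counts of 44 and 11 became 81 and 32 with that pseudocount, and 23 and 9 with a filter at 5 FPKM. Leaving out 1 library gave 737 to 1198 genes above and 580 to 1626 below additive, and 23 to 49 above at 2-fold or more. With median-ratio rescaling and RMC-6236 replicate 1 left out, an alternative added after seeing the data, 1404 genes lay above and 1285 below (52.2% above), against 52.9% above when rescaled with all libraries. The replicate block gave 1109 and 806. The correlations of same-numbered libraries ran from -0.16 to 0.39 over 18 pairs against -0.33 to 0.20 over 36 others. Those of RMC-6236 with control libraries were 0.39, 0.20 and 0.05, with the highest of all pairs among them, but between any 2 arms at least 1 of the 3 was under 0.1, so the numbers were not taken to pair the samples. The count of mitotic genes below additive was 1 with a pseudocount of 0.1, 5 after rescaling and 17 without RMC-6236 replicate 1, against 3. With a pseudocount of 0.1 the interaction of BMF was -0.20 and that of MUC5AC 0.054 (adjusted p = 0.83), against -0.27 with a pseudocount of 1, and 21 other named genes lost their call; the cause was not tested. Read depth is unknown, so low FPKM carry an error that only the 3 libraries per arm show.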
